A study of Mus musculus with 12 samples.

Results

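The genes described here encode the GATA, TAL1 and LMO2 complex factors of blood progenitors: Gata1, Gata2, Gata3, Zfpm1, Tal1, Lyl1, Lmo2, Ldb1, Gfi1b and Klf1. They were taken by symbol from a fixed list, and all 10 were found among the 24411 genes of the tables. All 10 passed the filter on low counts that left 13755 genes for testing. The sequenced RNA came from the bone marrow fraction of C57BL/6 mice that lacks lineage markers and carries cKit, which holds stem and progenitor cells. There were 12 libraries, 3 in each of 4 donor genotypes, and their totals ran from 73074797 to 86555638 expected counts.

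The double group carried Mx1-Cre, Sf3b1-K700E and Inv(3), and is called double mutant here. The inv(3) group carried Mx1-Cre and Inv(3). The Sf3b1 K700E group carried Mx1-Cre and Sf3b1-K700E, a hotspot change in a core splicing factor. The control group carried Mx1-Cre alone. All donors were CD45.2, all recipients were CD45.1, and all recipients had pIpC, 20 mg/kg in 3 doses, from 4 weeks after transplantation. Mx1-Cre is driven by an interferon-responsive promoter, so pIpC switches it on in interferon-responsive cells that carry it, here those derived from the donors. Marrow was taken 6 months after pIpC. In human inv(3) leukaemia a distal GATA2 enhancer is moved beside MECOM, the gene of EVI1; the sources used here do not give how the mouse allele was built. Nor do they say whether CD45.2 cells were separated from host cells, what sex or age the mice had, or whether the 3 libraries of a group came from separate mice. The p-values therefore measure the spread between these libraries, which may be technical.

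GATA factors are zinc finger proteins that bind DNA. Tal1 and Lyl1 are related basic helix-loop-helix proteins that pair with E proteins, and Lmo2 and Ldb1 bridge them to GATA factors without binding DNA themselves. Assemblies with Gata2 act in stem and early progenitor cells, and those with Gata1 in red cell, megakaryocyte, mast cell and eosinophil differentiation, where Gata1 takes the place of Gata2 at many sites. Zfpm1 (FOG1) is a cofactor of Gata1, Gfi1b is a repressor, and Klf1 is an activator of red cell genes.

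Promoter sequences are shown for Gata1, Tal1, Gfi1b and Klf1, which were lower together in both groups with inv(3), and for Lyl1, which was higher. They are from RefSeq on GRCm38.p6, 250 bases before to 50 bases after an annotated start, written 5′ to 3′ on the gene's strand. Capitals mark GATAA, the E-box CAGNTG, the CACCC-type CCNCNCCC bound by Klf factors, and CTG followed by 8 or 9 bases and GATAA, the spacing of a joint E-box and GATA site. All were searched on both strands, and overlapping matches were kept. The regions are chrX:7967861-7968160 (minus strand) for Gata1, chr4:115056176-115056475 (plus) for Tal1, chr2:28621933-28622232 (minus) for Gfi1b, chr8:84901732-84902031 (plus) for Klf1 and chr8:84701207-84701506 (plus) for Lyl1.
Gata1: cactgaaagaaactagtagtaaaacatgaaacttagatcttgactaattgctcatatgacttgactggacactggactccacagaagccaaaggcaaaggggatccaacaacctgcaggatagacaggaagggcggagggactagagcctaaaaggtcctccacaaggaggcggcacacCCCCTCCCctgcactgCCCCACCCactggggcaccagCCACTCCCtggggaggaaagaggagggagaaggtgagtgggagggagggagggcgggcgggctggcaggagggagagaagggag
Tal1: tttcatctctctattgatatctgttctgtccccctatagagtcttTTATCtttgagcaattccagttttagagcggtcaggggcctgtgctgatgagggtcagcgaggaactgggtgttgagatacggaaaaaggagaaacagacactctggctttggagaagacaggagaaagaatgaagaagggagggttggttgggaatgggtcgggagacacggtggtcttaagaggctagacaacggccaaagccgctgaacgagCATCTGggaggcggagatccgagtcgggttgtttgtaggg
Gfi1b: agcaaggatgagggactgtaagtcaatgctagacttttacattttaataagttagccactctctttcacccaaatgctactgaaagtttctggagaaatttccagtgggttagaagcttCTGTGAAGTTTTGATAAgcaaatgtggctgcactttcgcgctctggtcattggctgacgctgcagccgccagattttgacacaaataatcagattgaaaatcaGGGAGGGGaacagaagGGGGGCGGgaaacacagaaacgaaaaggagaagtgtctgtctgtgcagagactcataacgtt
Klf1: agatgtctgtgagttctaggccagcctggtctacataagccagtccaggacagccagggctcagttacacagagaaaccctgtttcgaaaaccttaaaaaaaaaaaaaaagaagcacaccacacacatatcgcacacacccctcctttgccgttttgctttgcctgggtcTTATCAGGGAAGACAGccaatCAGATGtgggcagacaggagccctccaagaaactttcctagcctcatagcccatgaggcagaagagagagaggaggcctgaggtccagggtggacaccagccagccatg
Lyl1: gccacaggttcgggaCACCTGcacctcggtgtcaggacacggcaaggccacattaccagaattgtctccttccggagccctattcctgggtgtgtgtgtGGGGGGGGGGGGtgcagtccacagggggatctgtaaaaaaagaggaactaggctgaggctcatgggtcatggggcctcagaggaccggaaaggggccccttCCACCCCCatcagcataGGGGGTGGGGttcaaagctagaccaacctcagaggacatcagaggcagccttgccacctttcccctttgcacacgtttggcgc

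The Gfi1b window held CTGTGAAGTTTTGATAA, with 9 bases between the parts, from base -131 relative to the start. The Klf1 window held the form with 8 bases between the parts on the opposite strand, read here as TTATCAGGGAAGACAG from base -80. Of 32851 promoter windows of this length, 0.861% held the form with 9 bases and 0.618% the form with 8. GATAA alone was in 25.4% of all windows, CAGNTG in 51.4% and CCNCNCCC in 49.5%. The table had 13 windows for 9 of the 10 genes. Tal1 had 2, and the upstream one is printed; the other, chr4:115057561-115057860, held neither GATAA nor CAGNTG and had 4 matches of CCNCNCCC. Of the 13 windows, 4 held GATAA, 6 held CAGNTG and 11 held CCNCNCCC. The Gata1 window held CCNCNCCC alone, as did windows of Tal1, Gata2, Zfpm1 and Ldb1. A match is a string of letters and was not tested for binding.

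Levels of marker genes in the libraries were as follows. Kit, the receptor used for the sort, averaged 155 ± 3.98 TPM in double mutant, 140 ± 5.19 TPM in inv(3), 155 ± 4.58 TPM in Sf3b1 K700E and 158 ± 5.19 TPM in control libraries (SD, n = 3 each). TPM is a transcript abundance scaled to gene length and library total. Kit is 1 of 10 stem and progenitor markers, and it was not called in the 3 comparisons given next. By edgeR adjusted p under 0.05, 6 of the 10 fell and 1 rose in inv(3) against control. The same counts held in double mutant against Sf3b1 K700E. In double mutant against inv(3), 7 rose and none fell. The part of these markers in the results below was not tested. Mecom averaged 4.07 ± 0.474 TPM in double mutant, 1.74 ± 0.474 TPM in inv(3), 4.13 ± 1.04 TPM in Sf3b1 K700E and 2.98 ± 0.244 TPM in control libraries (SD, n = 3 each). It was not called higher with inv(3) at the same Sf3b1 status. Its log2 fold change was -0.42 ± 0.20 in inv(3) against control (SE; edgeR adjusted p = 0.11). In double mutant against Sf3b1 K700E it was 0.26 ± 0.19 (edgeR adjusted p = 0.28). The first was called lower, at -0.64, without inv(3) replicate 1. Mecom was called higher in double mutant against control, at 0.72 ± 0.20 (SE; edgeR adjusted p = 0.011). It was also called higher in double mutant against inv(3), at 1.15 ± 0.20 (edgeR adjusted p = 0.0031). Mecom levels give no check of the inv(3) label, and groups are named as labelled throughout. The 3 inv(3) libraries held 4 to 8 counts over 4 Y-linked genes and 1794 to 2095 CPM (counts scaled to library total) of Xist. The other 9 libraries held 19200 to 25380 Y-linked counts. Among these, Xist was at 23.2 to 40.5 CPM in double mutant libraries, 77.1 to 210 CPM in Sf3b1 K700E libraries, which stood apart, and 24.0 to 39.9 CPM in control libraries. Sex cannot be told apart from genotype in comparisons with the inv(3) group; the double mutant, Sf3b1 K700E and control libraries all held Y-linked RNA.

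Members differed widely in level per length. Lmo2 was the highest in every group, at 460 ± 19 TPM in double mutant, 348 ± 20.4 TPM in inv(3), 406 ± 29.4 TPM in Sf3b1 K700E and 352 ± 8.45 TPM in control libraries (SD, n = 3 each). Lyl1, Ldb1 and Gata2 came next by mean TPM in double mutant, inv(3) and control libraries; in Sf3b1 K700E libraries the mean of Ldb1 was above that of Lyl1, at 143.5 and 138.7 TPM, with overlapping libraries. Lmo2, Lyl1 and Ldb1 together made up 85.4% to 90.6% of the summed TPM of the 10 genes in double mutant libraries, 89.7% to 91.4% in inv(3) libraries, 72.2% to 75.7% in Sf3b1 K700E libraries and 78.5% to 80.5% in control libraries. After Gata2, the mean TPM ran Zfpm1, Tal1, Gata1, Gfi1b, Klf1 in both groups with inv(3), and Tal1, Gata1, Gfi1b, Zfpm1, Klf1 in both without. Gata3 was last in every group. Neighbours in this order with overlapping libraries included Tal1 and Gata1 in double mutant libraries, Gata1 and Gfi1b in inv(3) libraries, and Tal1 and Gata1 in Sf3b1 K700E libraries.

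**Figure D1:**
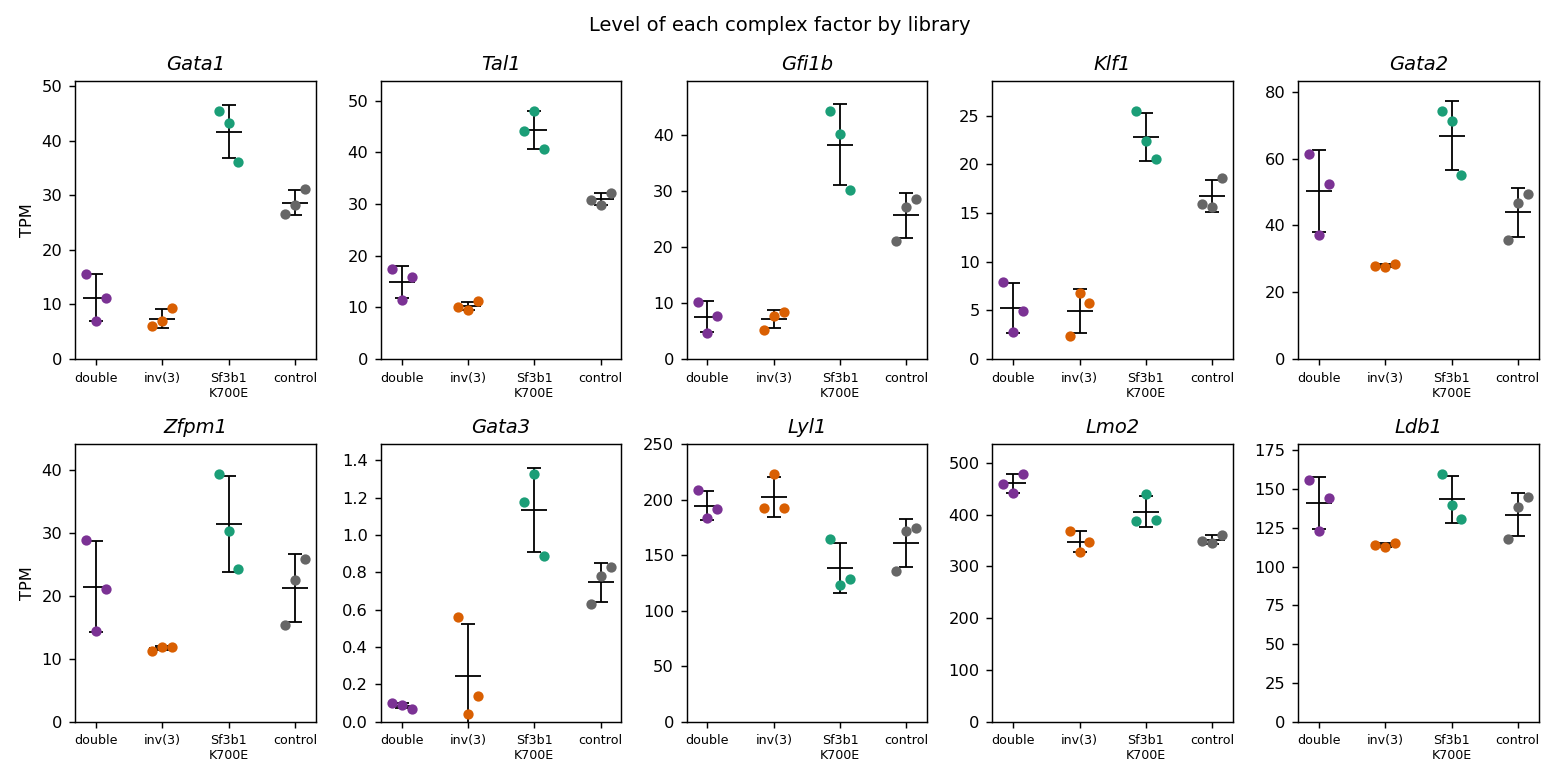
Level of each gene in TPM (y axis, from 0, with its own scale per gene) in the 3 libraries of each donor genotype (x axis); points are libraries, bars are mean ± SD. For Gata1, Tal1, Gfi1b and Klf1 all 6 libraries with inv(3) lie below all 6 without it. The share of all tested genes that separate in this way was not counted.

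Gata1, Tal1, Gfi1b and Klf1 fell with inv(3) in both backgrounds, and Lyl1 rose. For each of these genes, the TPM of all libraries with inv(3) lay apart from that of all without it. How many of all tested genes separate in this way was not counted. Against control, 6 of the 10 genes fell and 1 rose in inv(3) libraries, where 38.7% of the 13755 tested genes were called, 20.3% lower and 18.4% higher. Against Sf3b1 K700E, 5 fell and 2 rose in double mutant libraries, where 49.2% of tested genes were called, 23.5% lower and 25.7% higher. The median log2 fold change of the members was -1.12 in inv(3) against control and -0.97 in double mutant against Sf3b1 K700E, and that of all tested genes was 0.00 and 0.03 in these comparisons. These comparisons share no library, but both come from the same fit over all libraries and share its scaling and estimate of spread. Gene-wise tests were edgeR's quasi-likelihood test with Benjamini-Hochberg adjustment over all tested genes, at 0.05. In bulk RNA, fewer cells of a type and less RNA per cell cannot be told apart. Granulocyte markers moved with these results, and their part was not tested. Summed over 10 genes, mature neutrophil markers were at 2712 to 3904 CPM in double mutant libraries, 4626 to 5682 CPM in inv(3) libraries, 1190 to 2224 CPM in Sf3b1 K700E libraries and 1416 to 2096 CPM in control libraries. Of these, 6 rose and 1 fell in inv(3) against control, and 5 rose in double mutant against Sf3b1 K700E. The 6 primary granule markers summed to 30361 to 34968 CPM in double mutant and 40639 to 41904 CPM in inv(3) libraries. They were at 21016 to 25899 CPM in Sf3b1 K700E and 33184 to 36194 CPM in control libraries. Of the 6, 3 rose in inv(3) against control and 5 in double mutant against Sf3b1 K700E, and none fell. The 8 eosinophil markers summed to 309 to 319 CPM in double mutant libraries, 385 to 515 CPM in inv(3) libraries, 585 to 771 CPM in Sf3b1 K700E libraries and 626 to 765 CPM in control libraries; 5 fell and 1 rose in inv(3) against control, and 6 fell in double mutant against Sf3b1 K700E.

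Gata1 (chrX:7959260-7978071, minus strand, GRCm38), the factor of red cell and megakaryocyte maturation, was measured at 15.52, 7.02 and 11.24 TPM in double mutant, 5.97, 6.93 and 9.37 TPM in inv(3), 45.48, 43.33 and 36.19 TPM in Sf3b1 K700E, and 26.59, 28.21 and 31.15 TPM in control libraries. Every library with inv(3) was below every library without it, and the double mutant and inv(3) libraries overlapped. Gata1 fell in inv(3) against control, with a log2 fold change of -1.83 ± 0.24 (SE; edgeR adjusted p = 0.00017), and in double mutant against Sf3b1 K700E, with -1.80 ± 0.24 (edgeR adjusted p = 0.00011). These are 3.56-fold and 3.48-fold lower levels. Gata1 is X-linked, and inv(3) against control differed in sex-linked RNA as given above. Both groups of the second comparison held Y-linked RNA, and Xist was lower in its double mutant libraries. The part of sex was not tested.

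Gata2 (chr6:88193891-88207032, plus strand), the GATA factor of stem and early progenitor cells, was at 61.27, 37.16 and 52.53 TPM in double mutant, 27.74, 27.70 and 28.45 TPM in inv(3), 74.34, 71.15 and 55.19 TPM in Sf3b1 K700E, and 35.63, 46.74 and 49.53 TPM in control libraries. The 3 inv(3) libraries lay close together below all others, while double mutant libraries overlapped both the Sf3b1 K700E and the control libraries. The log2 fold change was -0.54 ± 0.17 in inv(3) against control (SE; edgeR adjusted p = 0.029). In double mutant against Sf3b1 K700E it was -0.32 ± 0.17 (edgeR adjusted p = 0.14). The first call was lost without control replicate 2 or 3, or without any 1 of the inv(3) replicates.

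The balance of Gata1 to Gata2 was lower in the libraries with inv(3). Per library, the log2 ratio of their TPM was -1.98, -2.40 and -2.22 in double mutant, -2.22, -1.999 and -1.60 in inv(3), -0.71, -0.72 and -0.61 in Sf3b1 K700E, and -0.42, -0.73 and -0.67 in control libraries. No library with inv(3) reached the range of those without it. The difference with minus without inv(3), averaged over Sf3b1 status, was -1.43 (exact permutation test within Sf3b1 status, two-sided, p = 0.005, the smallest that the 400 arrangements can give). Gata2 was 79.7% to 83.9% of the summed TPM of Gata1, Gata2 and Gata3 in double mutant libraries, 74.9% to 80.9% in inv(3) libraries, 59.8% to 61.4% in Sf3b1 K700E libraries and 56.7% to 61.7% in control libraries.

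Zfpm1 (chr8:122282141-122337251, plus strand), the FOG1 cofactor, was at 28.89, 14.47 and 21.10 TPM in double mutant, 11.30, 11.88 and 11.83 TPM in inv(3), 39.48, 30.40 and 24.31 TPM in Sf3b1 K700E, and 15.36, 22.53 and 25.90 TPM in control libraries. Its levels were spread in every group other than inv(3), whose 3 libraries were the lowest of the 12. It fell in inv(3) against control, with a log2 fold change of -0.75 ± 0.26 (SE; edgeR adjusted p = 0.039), and was -0.46 ± 0.25 in double mutant against Sf3b1 K700E (edgeR adjusted p = 0.16). The call was lost without control replicate 2 or 3, or without any 1 of the inv(3) replicates.

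Gata3 (chr2:9857078-9890034, minus strand), the GATA factor of T and innate lymphoid cells, was near the floor of detection. It had 15, 12 and 9 expected counts in double mutant libraries, 79, 6 and 22 in inv(3) libraries, 167, 171 and 135 in Sf3b1 K700E libraries, and 85, 109 and 118 in control libraries. The double mutant libraries were below all libraries without inv(3), and inv(3) replicate 1 stood near the lowest control library. The log2 fold change was -3.64 ± 0.63 in double mutant against Sf3b1 K700E (SE; edgeR adjusted p = 0.00066). In inv(3) against control it was -1.50 ± 0.56 (edgeR adjusted p = 0.054), and -2.86 without inv(3) replicate 1 (edgeR adjusted p = 0.00022). The 3 CD3 genes, which mark T cells, summed to 1 to 6 counts per library with both alleles, 1 to 5 with inv(3) alone, 11 to 18 with Sf3b1 K700E alone and 1 to 4 in controls.

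Tal1 (chr4:115056426-115071755, plus strand), the DNA-binding helix-loop-helix partner, had the smallest errors among the genes that fell. It was at 17.47, 11.35 and 15.81 TPM in double mutant, 9.97, 9.56 and 11.13 TPM in inv(3), 44.07, 48.01 and 40.71 TPM in Sf3b1 K700E, and 30.85, 29.76 and 32.08 TPM in control libraries. The 4 groups stood in separate ranges, lowest in inv(3) and highest in Sf3b1 K700E. The log2 fold change was -1.48 ± 0.12 both in inv(3) against control (SE; edgeR adjusted p = 6.5e-06) and in double mutant against Sf3b1 K700E (edgeR adjusted p = 3.4e-06).

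Lyl1 (chr8:84701457-84704715, plus strand), the relative of Tal1, moved the other way. It was at 208.86, 183.40 and 191.77 TPM in double mutant, 192.15, 223.56 and 192.72 TPM in inv(3), 164.14, 122.93 and 128.89 TPM in Sf3b1 K700E, and 135.89, 171.43 and 174.62 TPM in control libraries. All 6 libraries with inv(3) were above all 6 without it. Lyl1 rose by a log2 fold change of 0.45 ± 0.13 in inv(3) against control (SE; edgeR adjusted p = 0.016) and by 0.58 ± 0.13 in double mutant against Sf3b1 K700E (edgeR adjusted p = 0.0031). The first call was lost without control replicate 1 and without inv(3) replicate 2, leaving no member called higher.

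The log2 ratio of Tal1 to Lyl1 TPM averaged -3.73 ± 0.25 in double mutant, -4.31 ± 0.22 in inv(3), -1.64 ± 0.27 in Sf3b1 K700E and -2.37 ± 0.20 in control libraries (SD, n = 3 each). The difference with minus without inv(3) was -2.02 (exact permutation test within Sf3b1 status, two-sided, p = 0.005, the smallest that the 400 arrangements can give).

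**Figure D2:**
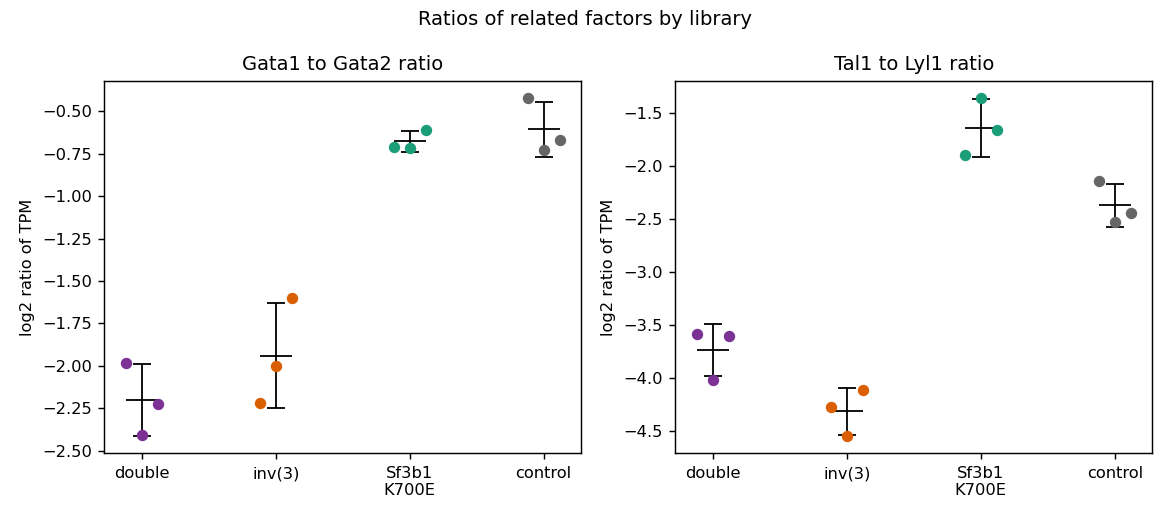
Log2 ratio of TPM (y axis) of Gata1 to Gata2 and of Tal1 to Lyl1 by donor genotype (x axis); points are libraries, bars are mean ± SD. Both ratios are lower in every library with inv(3) than in any without it, with mean Gata1 to Gata2 log2 ratios of -2.20 in double mutant, -1.94 in inv(3), -0.68 in Sf3b1 K700E and -0.61 in control libraries.

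The bridging genes had the smallest log2 fold changes of the 10 in both comparisons of inv(3). Lmo2 (chr2:103957986-103981878, plus strand) was at 459.96, 441.36 and 479.44 TPM in double mutant, 368.57, 327.86 and 346.41 TPM in inv(3), 387.95, 439.80 and 389.72 TPM in Sf3b1 K700E, and 348.31, 345.25 and 361.18 TPM in control libraries. All double mutant libraries were the highest of the 12, and inv(3) libraries overlapped control libraries. Lmo2 rose in double mutant against Sf3b1 K700E by a log2 fold change of 0.27 ± 0.05 (SE; edgeR adjusted p = 0.00052), with 0.10 ± 0.05 in inv(3) against control (edgeR adjusted p = 0.12). Ldb1 (chr19:46031570-46045214, minus strand), the dimerising adaptor, ran from 123 to 156 TPM in double mutant, 113 to 115 TPM in inv(3), 130 to 160 TPM in Sf3b1 K700E and 118 to 145 TPM in control libraries. Its log2 fold change was -0.12 ± 0.10 in inv(3) against control (edgeR adjusted p = 0.37) and 0.06 ± 0.10 in double mutant against Sf3b1 K700E (edgeR adjusted p = 0.62).

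Gfi1b (chr2:28609450-28621982, minus strand), the repressor of red cell and platelet lineages and the gene with the joint motif at base -131, was at 10.25, 4.68 and 7.65 TPM in double mutant, 5.24, 7.77 and 8.43 TPM in inv(3), 44.31, 40.13 and 30.25 TPM in Sf3b1 K700E, and 21.15, 27.21 and 28.59 TPM in control libraries. The groups with inv(3) overlapped each other and lay far below both groups without it. Gfi1b fell, with a log2 fold change of -1.72 ± 0.27 in inv(3) against control (SE; edgeR adjusted p = 0.00054) and -2.25 ± 0.28 in double mutant against Sf3b1 K700E (edgeR adjusted p = 6e-05).

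Klf1 (chr8:84901928-84905291, plus strand), the activator of globin and other red cell genes, was at 7.94, 2.82 and 4.98 TPM in double mutant, 2.37, 6.74 and 5.75 TPM in inv(3), 25.50, 22.35 and 20.55 TPM in Sf3b1 K700E, and 15.89, 15.66 and 18.64 TPM in control libraries. Every library with inv(3) was again below every library without it. The log2 fold change was -1.63 ± 0.38 in inv(3) against control (SE; edgeR adjusted p = 0.0055) and -2.03 ± 0.38 in double mutant against Sf3b1 K700E (edgeR adjusted p = 0.0011).

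**Figure D3:**
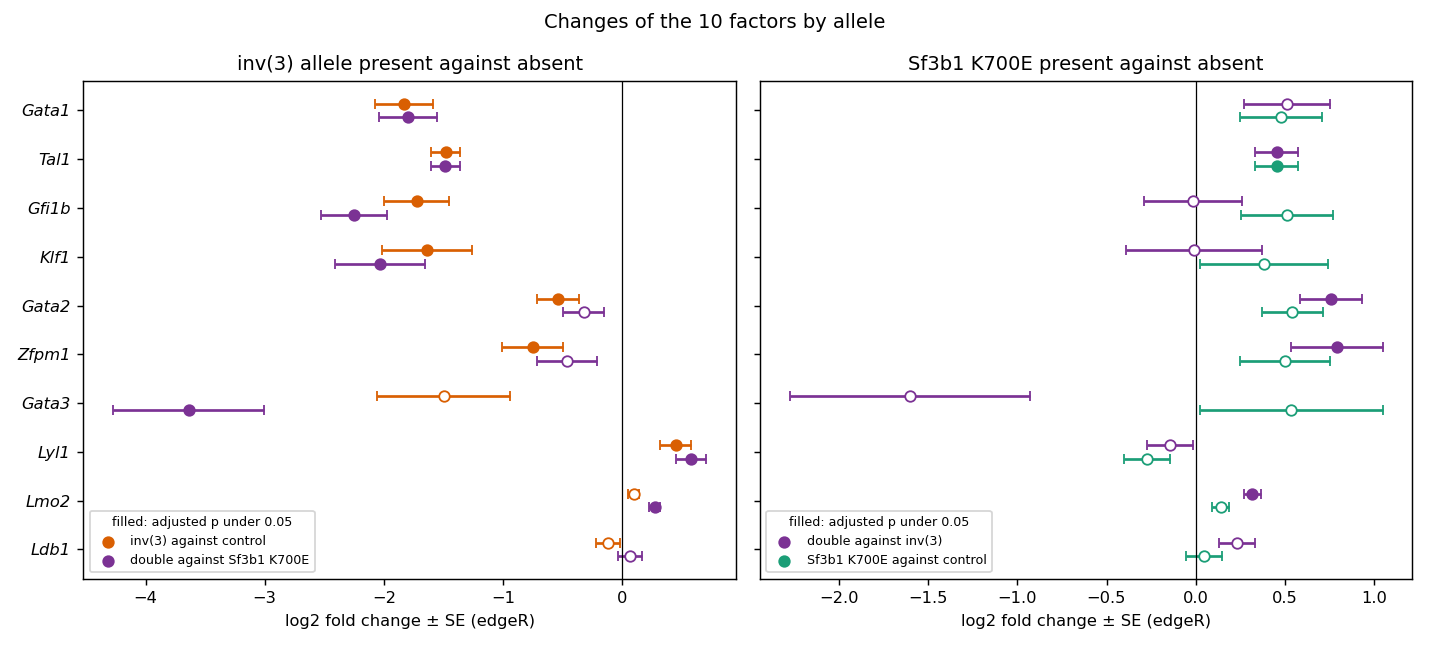
Log2 fold change ± SE (x axis) of the 10 genes (y axis) for the inv(3) allele (left) and for Sf3b1 K700E (right), each in both backgrounds; filled points have an edgeR adjusted p under 0.05. Gata1, Tal1, Gfi1b and Klf1 lie between -1.48 and -2.25 for inv(3) in both backgrounds; for Sf3b1 K700E the filled points are the 4 genes called in double mutant against inv(3) and Tal1 in Sf3b1 K700E against control.

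For Gata1, Tal1, Gfi1b, Klf1 and Lyl1, log2 fold changes were smaller in size with Sf3b1 K700E than with inv(3), in both backgrounds. That was not so for Gata2, Zfpm1, Lmo2, Ldb1 and Gata3. In double mutant against inv(3), Gata2, Zfpm1, Lmo2 and Ldb1 were at 0.76, 0.79, 0.32 and 0.23. Each of these exceeded in size both values of the same gene for inv(3). Gata3, at -1.60 there, exceeded in size only its value of -1.50 in inv(3) against control. Ldb1 and Gata3 were not called in double mutant against inv(3). In Sf3b1 K700E against control, 1 of the 10 genes, Tal1, rose and none fell. There 8.84% of tested genes were called, 3.94% higher and 4.9% lower. For the count of 0, edgeR called 0 at an unadjusted p under 0.05, and DESeq2 called 0 after adjustment and 1 unadjusted. The members' median log2 fold change was 0.47, against -0.01 for all tested genes. Tal1 was 0.45 ± 0.12 higher on the log2 scale (SE; edgeR adjusted p = 0.039), and the call was lost without control replicate 1, 2 or 3 and without Sf3b1 K700E replicate 1 or 2. Gata1 was 0.48 ± 0.23 (edgeR adjusted p = 0.22), Gata2 0.54 ± 0.17 (edgeR adjusted p = 0.075) and Gfi1b 0.51 ± 0.26 (edgeR adjusted p = 0.24).

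Double mutant against inv(3) gave 4 of the 10 genes higher and none lower, where 22.6% of tested genes were called, 13.4% higher and 9.13% lower; at an unadjusted p under 0.05, 1 gene was lower by edgeR, and DESeq2 called 1 lower after adjustment. The median log2 fold change of the members was 0.27, and of all tested genes 0.00. Gata2 rose by 0.76 ± 0.17 (SE; edgeR adjusted p = 0.011), Zfpm1 by 0.79 ± 0.26 (edgeR adjusted p = 0.048), Tal1 by 0.45 ± 0.12 (edgeR adjusted p = 0.023) and Lmo2 by 0.32 ± 0.05 (edgeR adjusted p = 0.0015). Gata1 was 0.51 ± 0.24 (edgeR adjusted p = 0.15). Gfi1b and Klf1 were at -0.02 ± 0.27 and -0.01 ± 0.38 (edgeR adjusted p = 0.98 and 0.99). The call of Zfpm1 was lost in 5 of the 6 leave-one-out fits of these libraries (it held without double mutant replicate 2), and that of Tal1 without inv(3) replicate 1 or 2 or double mutant replicate 1 or 3. The number higher was 2 without inv(3) replicate 1 or 2, or without double mutant replicate 1 or 3, and 6 without double mutant replicate 2. The sex difference given above also separates these 2 groups, and its part was not tested. Stem and progenitor markers moved with these results. Of 10, 7 rose and none fell, with a median log2 fold change of 1.01. They summed to 802 to 889 CPM in double mutant and 597 to 706 CPM in inv(3) libraries, and their part was not tested.

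Double mutant against control, which shares libraries with the comparisons above, gave 5 genes lower and 1 higher, where 41.1% of tested genes were called, 20.4% lower and 20.8% higher. Gata1 fell, with a log2 fold change of -1.32 ± 0.24 (SE; edgeR adjusted p = 0.0011), Tal1 at -1.03 ± 0.12 (edgeR adjusted p = 5.5e-05), Gfi1b at -1.74 ± 0.27 (edgeR adjusted p = 0.00044), Klf1 at -1.65 ± 0.38 (edgeR adjusted p = 0.005) and Gata3 at -3.10 ± 0.64 (edgeR adjusted p = 0.0025). Lmo2 rose by 0.42 ± 0.05 (edgeR adjusted p = 3.3e-05). Gata2 and Zfpm1 were at 0.22 ± 0.17 and 0.04 ± 0.25 (edgeR adjusted p = 0.34 and 0.92), with overlapping libraries.

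Whether the effect of inv(3) differed with Sf3b1 status was tested as an interaction. None of the 10 genes was called, where 0.836% of tested genes were, 0.4% in the higher and 0.436% in the lower direction. At an unadjusted p under 0.05, edgeR gave 1 member higher and 1 lower, as did DESeq2, which called none after adjustment. The interaction on the log2 scale was 0.03 ± 0.33 for Gata1, 0.22 ± 0.24 for Gata2, -0.53 ± 0.38 for Gfi1b, 0.18 ± 0.07 for Lmo2 and -2.14 ± 0.85 for Gata3 (SE). For Gata3 it was -0.78 without inv(3) replicate 1.

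The mean length of the transcripts assigned to a gene varies with isoform use, and 4 members, Tal1, Lmo2, Ldb1 and Gfi1b, had more than 1 transcript. The tests used the deposited effective length. Over 5 pairwise comparisons of these genes, none of 20 tests on its log2 was called with limma (lowest adjusted p = 0.47), and 1 had an unadjusted p under 0.05. The largest log2 difference was 0.0077. Effective length also differed between libraries for genes with 1 transcript. Gata1, 1902 bases long in both, had effective lengths of 1738.59 and 1725.08 bases in inv(3) replicates 1 and 2. The tests therefore do not measure isoform use alone. Over the 3335 genes tested, 0.27% were called in inv(3) against control, 0.57% in double mutant against Sf3b1 K700E, 0.48% in double mutant against control, and 0.03% each in double mutant against inv(3) and in Sf3b1 K700E against control.

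Genes around the complex were grouped in lists. Over all tested genes, 20.3% were called lower and 18.4% higher in inv(3) against control. In double mutant against Sf3b1 K700E, 23.5% were called lower and 25.7% higher. The counts of each list below are to be read beside these shares. Of 25 tested complex partners, 5 rose and 4 fell in inv(3) against control, and 9 rose and 7 fell in double mutant against Sf3b1 K700E, with medians of 0.04 and 0.06 on the log2 scale. Erg, an ETS factor of stem cells, rose by 0.30 ± 0.06 and 0.53 ± 0.06 in these comparisons (SE; edgeR adjusted p = 0.0012 and 1.6e-05). Tcf12, an E protein that pairs with Tal1, fell, with log2 fold changes of -0.30 ± 0.05 and -0.19 ± 0.05 (edgeR adjusted p = 3e-04 and 0.0048). Gfi1, the relative of Gfi1b used in myeloid and stem cells, rose by 0.40 ± 0.09 and 0.45 ± 0.09 (edgeR adjusted p = 0.005 and 0.0018). Tcf3, another E protein, averaged 51.0 ± 7.98 TPM in double mutant, 50.4 ± 7.3 TPM in inv(3), 56.2 ± 12.5 TPM in Sf3b1 K700E and 56.0 ± 10.2 TPM in control libraries (SD, n = 3 each). Of 12 tested paralogs of the members, 6 rose and 1 fell in each of these comparisons. Gfi1 and Lmo4 are counted both as partners and as paralogs. In double mutant against Sf3b1 K700E, 3 paralogs rose without Sf3b1 K700E replicate 3 or double mutant replicate 1, and 2 without Sf3b1 K700E replicate 2; 2 fell without Sf3b1 K700E replicate 3. Of partners there, 5 rose without Sf3b1 K700E replicate 3 or double mutant replicate 3, 4 rose without Sf3b1 K700E replicate 2, and 4 fell without double mutant replicate 2 or 3. In inv(3) against control, 2 partners fell without control replicate 2 or inv(3) replicate 2.

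Of 33 tested erythroid genes, 22 fell and 3 rose in inv(3) against control, and 29 fell and 1 rose in double mutant against Sf3b1 K700E, with median log2 fold changes of -1.34 and -2.06. The erythropoietin receptor gene Epor fell, with log2 fold changes of -1.69 ± 0.40 and -2.06 ± 0.40 (SE; edgeR adjusted p = 0.006 and 0.0014), and the carbonic anhydrase gene Car1 at -2.20 ± 0.40 and -2.55 ± 0.41 (edgeR adjusted p = 0.0016 and 0.00046). The 3 genes that rose in inv(3) against control were Hba-a2, Hbb-b1 and Hbb-b2, and Hbb-b2 was the 1 in double mutant against Sf3b1 K700E; they were named after their values were seen, and reads of near-identical globin copies cannot be assigned with certainty. Macrophage markers moved with this list: their summed level was 105 to 132 CPM in double mutant, 100 to 173 CPM in inv(3), 571 to 761 CPM in Sf3b1 K700E and 449 to 535 CPM in control libraries, and their part was not tested. All 14 macrophage markers tested fell in double mutant against Sf3b1 K700E, and 10 fell and 1 rose in inv(3) against control.

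Late red cell genes rose with Sf3b1 K700E alone. In Sf3b1 K700E against control, Alas2, the red cell heme synthesis enzyme, rose by 3.24 ± 0.45 on the log2 scale and the alpha-globin gene Hba-a1 by 2.69 ± 0.23 (SE; edgeR adjusted p = 0.005 and 0.001). In the same comparison Klf1 was at 0.38 ± 0.36 (edgeR adjusted p = 0.54), Epor at 0.28 ± 0.38 (edgeR adjusted p = 0.69) and Car1 at 0.34 ± 0.38 (edgeR adjusted p = 0.63). Alas2 averaged 0.0633 ± 0.0513 TPM in double mutant, 0.207 ± 0.127 TPM in inv(3), 3.05 ± 1.25 TPM in Sf3b1 K700E and 0.307 ± 0.0924 TPM in control libraries (SD, n = 3 each). Its interaction was -4.99 ± 0.77 (SE; edgeR adjusted p = 0.015). Of the 14 macrophage markers, 11 rose and none fell in Sf3b1 K700E against control, and their part was not tested.

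Of 22 tested megakaryocyte genes, 14 fell and 3 rose in inv(3) against control, and 15 fell and 3 rose in double mutant against Sf3b1 K700E. Itga2b, the platelet integrin gene, fell, with log2 fold changes of -2.32 ± 0.20 and -2.49 ± 0.20 (SE; edgeR adjusted p = 9e-06 and 3.2e-06). Nfe2, a transcription factor of the same lineages, rose by 0.37 ± 0.05 and 0.52 ± 0.05 (edgeR adjusted p = 0.00016 and 8.35e-06). Of 19 tested mast cell and basophil genes, 10 fell in each comparison, while 3 rose in inv(3) against control and 5 in double mutant against Sf3b1 K700E. The carboxypeptidase gene Cpa3 fell, with log2 fold changes of -2.67 ± 0.19 and -3.28 ± 0.20 (edgeR adjusted p = 3e-06 and 5.3e-07), and the IgE receptor chain gene Ms4a2 at -2.15 ± 0.13 and -2.72 ± 0.13 (edgeR adjusted p = 7.1e-07 and 1e-07). Hdc fell, at -1.43 ± 0.11 and -2.27 ± 0.11 (edgeR adjusted p = 3.4e-06 and 1.1e-07). Fcer1a fell in the first comparison alone, at -1.36 ± 0.47 and -0.14 ± 0.45 (edgeR adjusted p = 0.04 and 0.82). Kit was called in neither. Cd200r3, an immune receptor gene named after its values were seen, rose with log2 fold changes of 4.13 ± 0.31 and 4.31 ± 0.30 (edgeR adjusted p = 2.9e-06 and 1e-06). The number that rose in double mutant against Sf3b1 K700E was 3 without Sf3b1 K700E replicate 1 or double mutant replicate 3.

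Of 15 tested T and innate lymphoid genes other than Gata3, 5 fell and 2 rose in inv(3) against control, and 7 fell and 2 rose in double mutant against Sf3b1 K700E. In the first, 3 fell without control replicate 2 or 3 or inv(3) replicate 3, and 5 rose without inv(3) replicate 2. In the second, 1 rose without Sf3b1 K700E replicate 3 or double mutant replicate 3. Over all tested genes, 38.7% were called in inv(3) against control and 49.2% in double mutant against Sf3b1 K700E. Rora, a nuclear receptor gene of innate lymphoid cells, fell, with log2 fold changes of -2.63 ± 0.28 and -1.49 ± 0.26 (SE; edgeR adjusted p = 2.8e-05 and 0.00053). Bcl11b, a T lineage factor, was at 0 to 0.02 TPM in double mutant, 0.01 to 0.17 TPM in inv(3), 0 to 0.02 TPM in Sf3b1 K700E and 0 to 0.01 TPM in control libraries. Of 8 tested B lymphoid markers, 4 fell and 1 rose in inv(3) against control. In double mutant against Sf3b1 K700E, 7 fell and 1 rose. All 10 listed summed to 32.5 to 33.6 CPM in double mutant and 26.4 to 33.6 CPM in inv(3) libraries. They were at 26.7 to 28.2 CPM in Sf3b1 K700E and 24.4 to 26.2 CPM in control libraries, and their part was not tested.

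**Figure D4:**
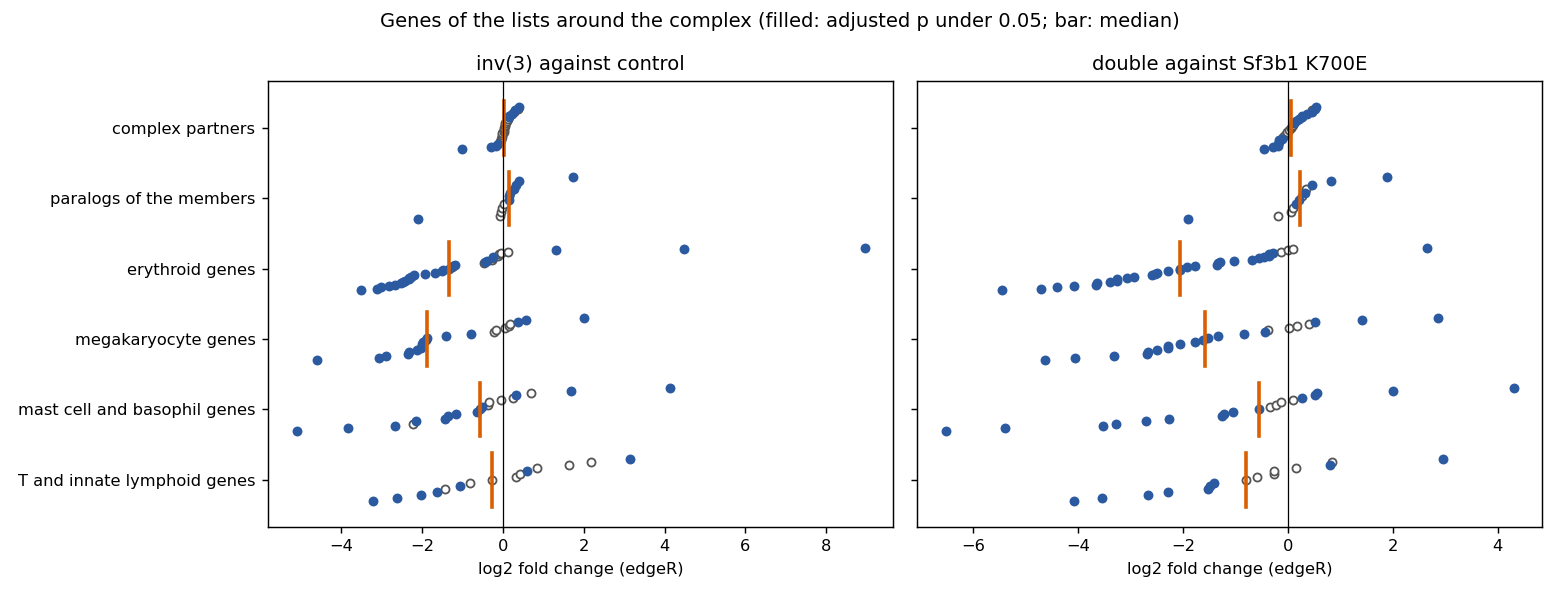
Log2 fold changes (x axis) of the tested genes of 6 lists (y axis), members left out, in inv(3) against control and in double mutant against Sf3b1 K700E; each point is a gene, filled points have an edgeR adjusted p under 0.05 and bars are list medians. Erythroid medians are -1.34 and -2.06, and those of complex partners 0.04 and 0.06.

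Across the 12 libraries, members and other genes with like profiles were described by the Pearson r of their log2 CPM among 9929 genes; libraries share the 4 genotypes, and r is given with no p. The gene most like Gata1 was Tal1 (r = 0.990), and the next 4 were Hs6st1, Tspan33, S100a10 and Car2, with r of 0.989, 0.989, 0.985 and 0.985. Car2, a carbonic anhydrase gene of red cells, averaged 70.7 ± 18.6 TPM in double mutant, 40.3 ± 14.4 TPM in inv(3), 316 ± 36.2 TPM in Sf3b1 K700E and 250 ± 9.53 TPM in control libraries (SD, n = 3 each). The gene most like Gata2 was Zfpm1 (r = 0.975), followed by Shank3, Phldb1, Capn5 and Pdrg1 (r = 0.968, 0.966, 0.949 and 0.947). The gene most like Gata3 was Dntt (r = 0.979), which encodes the terminal transferase of lymphoid progenitors, followed by Lrp1, Adcy9, Enc1 and C1qtnf6 (r = 0.975, 0.971, 0.968 and 0.964). Dntt averaged 0.35 ± 0.0985 TPM in double mutant, 1.46 ± 1.54 TPM in inv(3), 18.5 ± 1.33 TPM in Sf3b1 K700E and 12.2 ± 3.69 TPM in control libraries (SD, n = 3 each). Among members, Gfi1b and Klf1 had an r of 0.98, and Tal1 and Lyl1 an r of -0.85.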

How the data were processed

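Unstranded TruSeq libraries were made from poly(A)-selected RNA, per the labels. The authors deposited gene tables with the columns of RSEM. Their expected counts, per the file headers, estimate the fragments of each gene and carry no normalization. The deposited TPM values are scaled to gene length and library total. Deposited gene lengths, in bases, are averages over transcripts. The submitters' processing notes name bcl2fastq and mm10; no aligner or tool version was found in the labels or headers.

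Groups came from the labels. Expected counts were rounded, filtered with filterByExpr by group and scaled by TMM. A quasi-likelihood model of the 4 groups was fitted in edgeR (version 4.0.16, R version 4.3.3), with two-sided p-values adjusted by Benjamini-Hochberg over 13755 genes and a limit of 0.05. The tests were checked on simulated counts. DESeq2 1.42.0 was an alternative, and limma 3.58.1 tested effective gene lengths. Named genes are the 10 members, a list of 30 pathway genes whatever their values, and the 5 genes with a mean of at least 5 CPM most like each of Gata1, Gata2 and Gata3. The members and lists were chosen with earlier results of these data known. Other alternatives were RLE scaling, other count filters, the compared groups alone, a replicate block and leaving out each library. TPM is not TMM-scaled, so TPM ratios and fold changes can differ slightly. Unstranded fragments, or those of near-identical copies, may be assigned to the wrong gene. Intervals and errors do not cover technical sources shared by all libraries of a group.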

Additional observations from a re-analysis of the deposited data

How the results depend on the processing

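Of 60 member results, 25 were called and 19 of these were called under every alternative. The ratio differences kept their direction under each alternative, ranging from -1.32 to -1.51 for Gata1 to Gata2 and -1.94 to -2.08 for Tal1 to Lyl1. RLE scaling moved the scaled total of a library by at most 0.013 (log2) relative to TMM, after the mean shift over libraries was removed.

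Counts of members moved as follows, and the cause was not tested. Those higher in double mutant against inv(3), 4 as reported, were 2 with the compared groups alone and 2 to 6 in leave-one-out fits; those lower, 0 as reported, were 1 with DESeq2 and 0 to 1 in leave-one-out fits. Those higher in Sf3b1 K700E against control, 1 as reported, were 0 with no low-count filter, 2 with a mean of at least 5 CPM, 2 with the compared groups alone, 3 with DESeq2 and 0 to 2 in leave-one-out fits. Those higher in double mutant against control, 1 as reported, were 2 with the compared groups alone and with DESeq2. Those higher in inv(3) against control were 0 to 1 in leave-one-out fits.

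Zfpm1 in inv(3) against control had an edgeR adjusted p of 0.077 with no low-count filter, and Gata2 there one of 0.052. Uncalled log2 values that changed sign did so in leave-one-out fits. The Gata1 interaction ran from -0.26 to 0.28 and the Tal1 interaction from -0.13 to 0.15. Double mutant against inv(3) ran from -0.31 to 0.23 for Gfi1b and -0.44 to 0.29 for Klf1. Ldb1 ran from -0.057 to 0.13 in Sf3b1 K700E against control and -0.017 to 0.16 in double mutant against Sf3b1 K700E, and Zfpm1 from -0.23 to 0.25 in double mutant against control. With the compared groups alone, complex partners lower in inv(3) against control numbered 2, and those higher in double mutant against Sf3b1 K700E numbered 5. Paralogs in double mutant against Sf3b1 K700E were 3 higher with the compared groups alone, and 2 lower with that, RLE scaling or DESeq2. Zfpm1 in double mutant against inv(3) had an edgeR adjusted p of 0.095 with no low-count filter and 0.056 with the compared groups alone, and Tal1 there one of 0.084 with the compared groups alone.

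Replicate numbers are shared by the groups. Of 18 same-number pairs, only 3 had a correlation of deviations above 0.1 (range -0.38 to 0.27). Pairs with different numbers ran from -0.21 to 0.40. With 3 libraries per group, these values cannot tell whether same-number libraries shared a batch. The main fit had no replicate term. With the replicate block, members higher in Sf3b1 K700E against control were 0 (Tal1, edgeR adjusted p = 0.060). Zfpm1 was not called in inv(3) against control (0.052) or double mutant against inv(3) (0.075), and Gata3 was called in inv(3) against control (0.044). Both ratio differences had an exact permutation p = 0.031, the smallest that 64 arrangements can give. Gata3 had 6 to 171 counts per library, so its values carry more counting error than those of the other members.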
